A study of Homo sapiens with 105 samples.

Results

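The expression of 44 genes of mitosis and the G2/M transition was followed in human vaginal epithelial cells after 6 h with compounds that may serve in, or be tested beside, vaginal microbicides. The 44 genes are a list of well-known cell division genes, and the rule for the list uses no measured value. Each had at least 1 probeset on the Affymetrix U133 Plus 2.0 array that the annotation assigns to that gene alone, and the probeset with the highest mean over the arrays was used for each, so that 44 of 19775 genes with a probeset of their own were described. Vk2/E6E7 cells are a line of vaginal keratinocytes immortalized with the papillomavirus proteins E6 and E7. All groups therefore share these 2 proteins and 1 line. The pro-inflammatory compounds (PICs) were TNF-α at 40 ng/ml, the TLR ligands Pam3CSK4 at 10 μg/ml, MALP2 at 200 ng/ml and imiquimod (IMQ), and the detergent N-9 (nonoxynol 9) at 12.5 μg/ml. The labels give IMQ at 30 mg/ml while the methods of the paper have the same figure in μg/ml, so its dose is uncertain. The non-inflammatory compounds (NICs) were the gels HEC and CMC (hydroxyethyl and carboxymethyl cellulose), each at 1 mg/ml, and the control was growth medium alone (GM). Of 105 arrays, 103 were used: 53 of GM, 5 of TNF-α, 6 each of Pam3CSK4, MALP2 and IMQ, and 9 each of N-9, HEC and CMC. TNF-α replicate 6 was left out because it equals the mean of TNF-α replicates 1 to 3 within 7.67e-09 on the log2 scale. GM replicate 52 was left out because its highest correlation with any other array was 0.0493, where all other pairs of arrays reached at least 0.836.

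A cell enters mitosis when CDK1, bound to cyclin B, is switched on by CDC25 phosphatases. Aurora and polo-like kinases, kinesins and microtubule-binding proteins then build the spindle, the checkpoint proteins BUB1, BUB1B, BUB3, TTK and MAD2L1 hold the chromosomes until all are attached, and CDC20 with the anaphase-promoting complex releases them. The genes are transcribed late in the cell cycle. Their promoters are known for CCAAT boxes, which NF-Y binds, and for a cell cycle genes homology region (CHR), through which repressor complexes with pocket proteins keep them silent in G1 and activator complexes with B-MYB and FOXM1 raise them in G2. E7 is known to bind and inactivate pocket proteins. In a bulk sample a lower share of cells in G2/M and less RNA per cell cannot be told apart.

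The promoters of the 44 genes were searched on both strands for the CHR letters TTTGAA and TTTAAA and for CCAAT, in the 250 bases before and 50 bases after each annotated start. Sequences from RefSeq (GRCh38.p14) matched 37 of the genes, with 49 promoters. The genes without a matched promoter were AURKA, BUB3, TTK, UBE2C, TPX2, BIRC5 and FOXM1. TTTGAA was present in 30 of the 49 promoters (61.2%) and in 15.2% of all 35116 promoters of this length. TTTAAA was present in 16 (32.7%, against 12.2%) and CCAAT in 38 (77.6%, against 34.6%). Both a CHR motif and CCAAT were present in 30 of the 49 (61.2%), against 9.27% of all promoters. TTTAAA reads the same on both strands, and a CHR motif can share at most 1 base with CCAAT. A match is a description of the letters and not a binding site. The 150 bases before the start are given for the 5 genes with the smallest adjusted p in any treatment among those with a CHR motif, 5′ to 3′ on the strand of the gene, with CHR and CCAAT letters on either strand in capitals.
KIF20A (chr5:138178962-138179111, plus strand): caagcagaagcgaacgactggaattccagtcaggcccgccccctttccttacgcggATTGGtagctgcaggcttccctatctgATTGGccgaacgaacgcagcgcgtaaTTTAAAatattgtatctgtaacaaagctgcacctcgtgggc
BUB1B (chr15:40160919-40161068, plus strand): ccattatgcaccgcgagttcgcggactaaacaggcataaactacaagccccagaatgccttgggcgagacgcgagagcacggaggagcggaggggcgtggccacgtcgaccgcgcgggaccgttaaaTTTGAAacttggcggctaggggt
CCNB2 (chr15:59104996-59105145, plus strand): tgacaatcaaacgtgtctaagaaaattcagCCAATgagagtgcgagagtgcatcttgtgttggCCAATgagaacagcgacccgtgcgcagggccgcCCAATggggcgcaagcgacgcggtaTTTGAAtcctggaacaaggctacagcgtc
KIF18A (chr11:28108157-28108306, minus strand): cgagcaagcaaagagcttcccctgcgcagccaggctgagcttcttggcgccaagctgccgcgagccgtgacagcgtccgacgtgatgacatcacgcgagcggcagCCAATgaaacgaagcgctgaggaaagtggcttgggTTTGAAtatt
CCNF (chr16:2429297-2429446, plus strand): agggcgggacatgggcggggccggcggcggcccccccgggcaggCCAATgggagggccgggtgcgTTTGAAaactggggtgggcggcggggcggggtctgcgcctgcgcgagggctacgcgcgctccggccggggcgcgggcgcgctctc

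In CCNB2 the 3 CCAAT boxes began 120, 87 and 54 bases before the start and TTTGAA began 29 bases before it. KIF18A had CCAAT 45 and TTTGAA 10 bases before the start, and CCNF had them 106 and 85 bases before it. KIF20A had TTTAAA 41 bases before the start and CCAAT on the other strand 94 and 67 bases before it, while BUB1B had TTTGAA 23 bases before the start and no CCAAT in the stretch shown.

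Values are on the log2 scale of the deposited table after quantile normalization. The number of arrays limits the precision, and levels of different genes are not compared because each probeset has its own brightness. The 8 keratinocyte markers measured (KRT5, KRT14, CDH1, SFN, DSP, DSG3, PKP1 and ITGB4) were bright, with a summed log2 level between 16.7 and 17.25 over the GM arrays and between 16.84 and 17.23 in the 7 treatments. The 5 leukocyte markers summed to between 7.912 and 10.2 in all groups, the 3 melanocyte markers to between 6.849 and 8.78, and the 8 of fibroblasts and endothelium to between 10.16 and 12.44, most of it COL1A1. The labels call the arrays of a group biological replicates and number them. Arrays with 3 consecutive numbers were much alike, and such a set is called a run here. There were 35 runs, 18 of them of GM. The labels do not name runs, and which step of culture, labelling or hybridization the arrays of a run share is not given in the sources used here.

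The mitosis genes were among the genes that varied from run to run in untreated cells. A run was expressed as the mean, over the 44 genes, of the difference from the GM mean. GM runs ranged from -0.72 (replicates 4 to 6) to 0.75 (replicates 43 to 45). GM replicates 1 to 9, the first 3 runs, had the 3 lowest run means, -0.58, -0.72 and -0.70, and in these runs 42, 39 and 41 of the 44 genes lay below the GM mean. In replicates 43 to 45 all 44 genes lay above it. The 3 arrays of a run differed little beside this, for example between 0.73 and 0.77 in replicates 43 to 45. Over the GM arrays the median SD of the 44 genes was 0.626, against 0.39 for all 22948 probesets with a mean log2 value of at least 7, here called bright probesets. A median 92.8% of the variance of a gene lay between runs (74.7% to 98.7%), against 73.9% for bright probesets. With the runs as a random block in limma, the correlation within a run was 0.922 over the 44 genes and 0.438 over all probesets. Fits with that block used 0.438 for every probeset. They thus allow for less likeness within runs than the 44 genes showed.

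**Figure D1:**
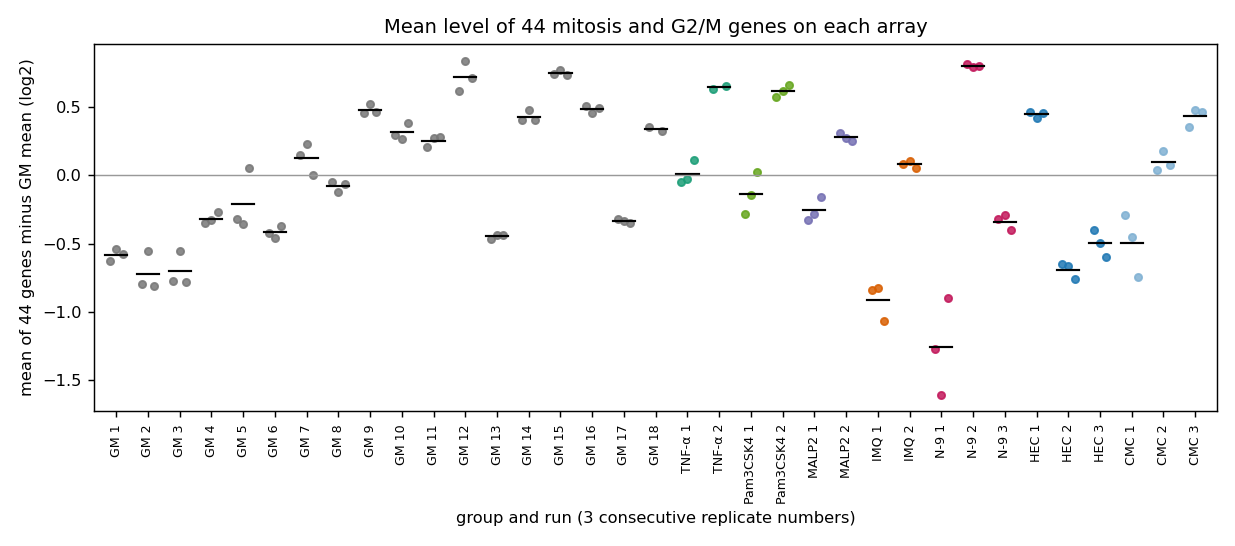
Mean over the 44 mitosis and G2/M genes of the log2 difference from the GM mean (vertical axis) on each of 103 arrays (points), by group and run (horizontal axis), with the mean of each run as a black line. Points of a run lie close together, GM runs spread from -0.72 to 0.75, and only the first IMQ run (-0.91) and the first and second N-9 runs (-1.26 and 0.80) lie outside that range.

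The genes moved up and down together over the 18 GM run means. The median correlation over the 946 pairs was 0.746, and 897 pairs were above 0. These are descriptions, since the genes share the same arrays. For 40 of the 44 genes the correlation with the mean of the others was above 0.5, and it was highest for DLGAP5 (0.977), ASPM (0.96), NEK2 (0.954) and TOP2A (0.952). DLGAP5 and ASPM organize the spindle, NEK2 is a centrosomal kinase and TOP2A disentangles the chromosomes. HMMR, a spindle protein, had a wide range of GM run means, from 9.35 to 12.4, and CDK1 ranged from 11.1 to 13.6. Among genes outside the list, the 86 other G2/M genes measured had a median correlation of 0.741 with the mean of the 44, and 82 of them were above 0. The 53 genes of G1/S and DNA replication had 0.602, with 50 above 0. Bright probesets as a whole had 0.0102, and CDKN1A, an inhibitor of cyclin-dependent kinases, had 0.274.

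The exceptions were CDC20 (-0.0839), CDC25B (0.182), BUB3 (0.283) and PLK1 (0.425). CDC20, the activator of the anaphase-promoting complex, had GM run means from 7.04 to 12.7, the widest range of the 44. It was at 8.27, 8.20 and 9.64 in GM replicates 19 to 21, at 6.82, 6.88 and 7.43 in replicates 31 to 33 and at 7.73 and 7.97 in replicates 53 and 54, where the other mitosis genes were above or near the GM mean (run means of all 44 of 0.13, 0.25 and 0.34). It was also low in N-9 replicates 7 to 9, at 7.94, 7.78 and 7.19. In the other 15 GM runs the CDC20 run mean lay between 0.60 below and 1.51 above the GM mean. The log2 ratio of the 3′ to the 5′ control probesets of GAPDH, a measure of RNA quality and labelling, was 0.29, 0.27 and 0.26 in these 3 GM runs and 0.36 in the N-9 run. It was as high, 0.43 and 0.31, in GM replicates 22 to 24 and 16 to 18, where CDC20 was 0.60 and 0.56 below the GM mean. The part of this ratio in the CDC20 values was not tested. CDC20 had a single probeset.

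**Figure D2:**
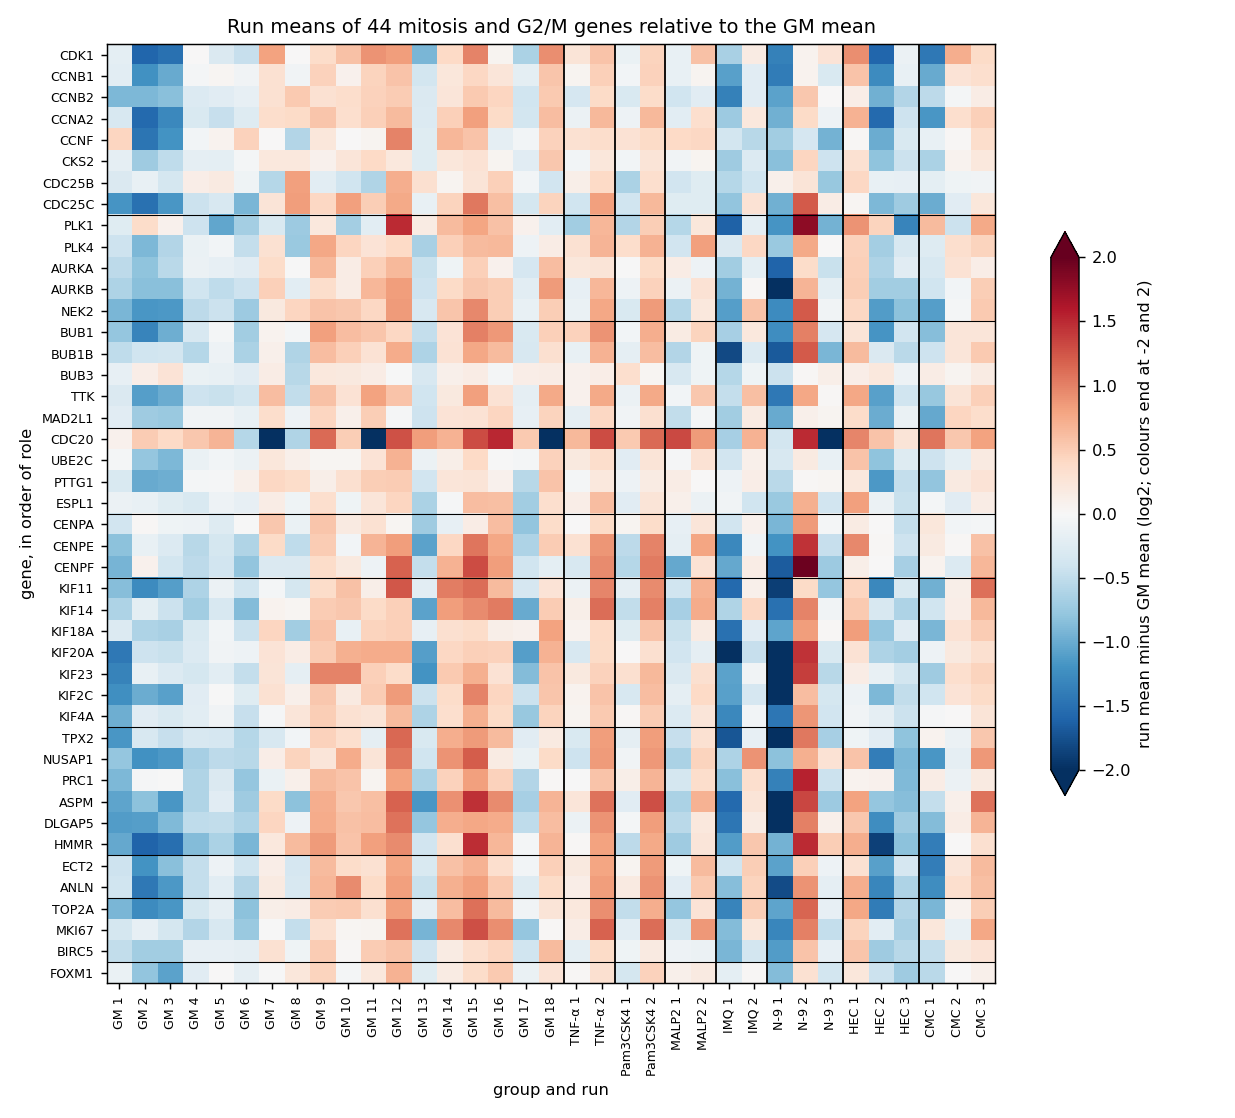
Run means of each of the 44 genes (rows, in order of role) minus the GM mean of that gene on the log2 scale, in the 35 runs of the 8 groups (columns). Whole columns are red or blue, as in GM 2 and 3 (replicates 4 to 9, lower) and GM 15 (higher), while CDC20 is deep blue in GM 7, 11 and 18 and in N-9 3, where most other rows are not.

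Against this spread the treatments were compared with GM, in limma across all 54613 probesets with the arrays as samples and with Benjamini-Hochberg adjustment. A gene that reached an adjusted p under 0.05 is said to have passed. After IMQ, 10 of the 44 genes fell (22.7%) and none rose, where 10.9% of all probesets passed, 6.19% lower and 4.68% higher. With the runs as a random block 4 fell, and with the means of runs as the samples none passed in limma. Of bright probesets 11.9% fell. After N-9, 5 fell (11.4%) and none rose, where 17.4% of all probesets passed, 10.1% lower and 7.35% higher. The block for runs left 1, and the means of runs none. Of bright probesets 18.6% fell after N-9. The share of mitosis genes that fell was near that of all probesets and below that of bright probesets, to which all 44 belong. After TNF-α, Pam3CSK4, MALP2, HEC and CMC none passed in limma in either direction, where 0.721%, 2.17%, 6.95%, 0.793% and 0.00183% of all probesets passed. An unadjusted p under 0.05 was reached by 1, 1, 1, 7 and 0 of the 44 in these 5 comparisons. Counts at an unadjusted p, here and below, stand without the share of all probesets that reached it. They are not set against a background. With the runs as a random block none of the 44 passed in limma either, where 0.223%, 0.518%, 3.02%, 0% and 0% of all probesets passed. The 7 comparisons share the GM arrays. The values of every one of the 44 genes in each treated group overlapped those of the GM arrays. The share of all probesets that overlapped is not given here, so the overlap is not read as a trait of these genes.

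After IMQ, 3 of the 8 genes of the cyclin-CDK engine, 2 of the 5 of the spindle checkpoint, 3 of the 7 kinesins, 1 of the 6 of spindle assembly and 1 of the 3 of chromosomes and proliferation fell. The median log2 difference of the 44 genes was -0.37, with 38 below 0, and the median of all probesets was 0.00097. Counts of genes above or below 0, here and below, stand without the share of all probesets. The genes moved together from run to run, so such counts are not counts of independent genes. The 10 genes that fell were KIF20A, BUB1B, CCNB2, KIF18A, BUB3, BIRC5, TPX2, CKS2, KIF4A and CDC25B. KIF20A, a kinesin of cytokinesis, had values of 8.17, 9.07, 8.14, 10.1, 10.0 and 10.2 in IMQ replicates 1 to 6, and between 8.82 and 11.6 with a median of 10.7 over GM. All 6 IMQ arrays lay below the GM median and 2 lay below the lowest GM array. The difference was -1.27 (SE 0.33, adjusted p = 0.0040), or 2.42-fold lower. BUB1B, which inhibits anaphase as part of the checkpoint, was at 8.55, 8.94 and 8.49 in replicates 1 to 3 and at 10.3, 10.2 and 10.1 in replicates 4 to 6, where GM ran from 9.62 to 11.3 with a median of 10.4. The 3 arrays of the first run lay below all GM arrays, and the difference was -1.04 (SE 0.27, adjusted p = 0.0048), or 2.05-fold lower. KIF20A and BUB1B were the 2 genes that passed with a fold above 2, where 3.43% of all probesets did.

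CCNB2, a cyclin partner of CDK1, was at 10.8, 11.1 and 10.4 in the first IMQ run and at 11.9 in each array of the second, with a GM median of 12.4 and a lowest GM array of 11.1. It fell by 0.79 (SE 0.22, adjusted p = 0.0079). KIF18A, a kinesin that shortens the microtubules at chromosomes, fell by 0.86 (SE 0.24, adjusted p = 0.0080), from a GM median of 9.08 to 7.47 to 9.06 with a median of 8.34. TPX2, which activates AURKA on the spindle, fell by 0.94 (adjusted p = 0.023). BIRC5 (survivin), of the chromosomal passenger complex, fell by 0.64 (adjusted p = 0.021), and KIF4A, a chromosome-bound kinesin, fell by 0.67 (adjusted p = 0.040). CKS2, a small subunit of the CDK1 complex, and CDC25B, the phosphatase that starts CDK1 activation, both fell by 0.49 (adjusted p = 0.029 and 0.0498). BUB3 fell by 0.33 (adjusted p = 0.018), but the other 3 probesets of BUB3 with a mean over 11 differed by 0.02, 0.07 and -0.21 and did not pass, while a dim one fell by 1.42. Over all 48 further probesets of the 44 genes, 11 fell and 0 rose after IMQ.

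The other genes did not pass after IMQ. In the cyclin-CDK engine CCNB1 was just outside the threshold (-0.66, adjusted p = 0.0504), and CDK1 (-0.24), CCNA2 (-0.25), CCNF (-0.46) and CDC25C (-0.25) differed less. Of the mitotic kinases PLK1 differed by -0.91 (adjusted p = 0.073), AURKA by -0.44, AURKB by -0.46, NEK2 by -0.27 and PLK4 by 0.06. The remaining checkpoint genes BUB1 (-0.22), TTK (0.06) and MAD2L1 (-0.27) and the genes of anaphase, CDC20 (0.01), UBE2C (-0.14), PTTG1 (0.02) and the separase ESPL1 (-0.24), were close to GM. CENPE, the kinesin of the kinetochore, differed by -0.68 and CENPF by -0.43, while CENPA, the histone of the centromere, differed by -0.15. The kinesins KIF11 (-0.73) and KIF2C (-0.71) had SEs of 0.33 and 0.28. KIF23 (-0.57) and KIF14 (-0.09), kinesins of cytokinesis, did not pass. Of the proteins that build the spindle, ASPM differed by -0.65, DLGAP5 by -0.64, HMMR by -0.29, PRC1 by -0.25 and NUSAP1 by 0.14, and of those that divide the cell, ANLN (anillin) by -0.20 and ECT2 by 0.05. TOP2A (-0.42), MKI67 (-0.32), which codes for the proliferation marker Ki-67, and the transcription factor FOXM1 (-0.09) did not pass. For these 34 genes the SE ran from 0.16 to 0.57. An unadjusted p under 0.05 was reached by 16 of the 44 genes, the 10 that passed included. The probesets of several genes disagree: a second, dimmer probeset fell for CCNF (by 1.31, adjusted p = 1.8e-05), BUB1 (by 1.64), TOP2A (by 1.05), MAD2L1 (by 0.89), ECT2 (by 1.29), NEK2 (by 1.09) and KIF2C (by 0.75), and 2 fell for ASPM (by 0.79 and 1.48).

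**Figure D3:**
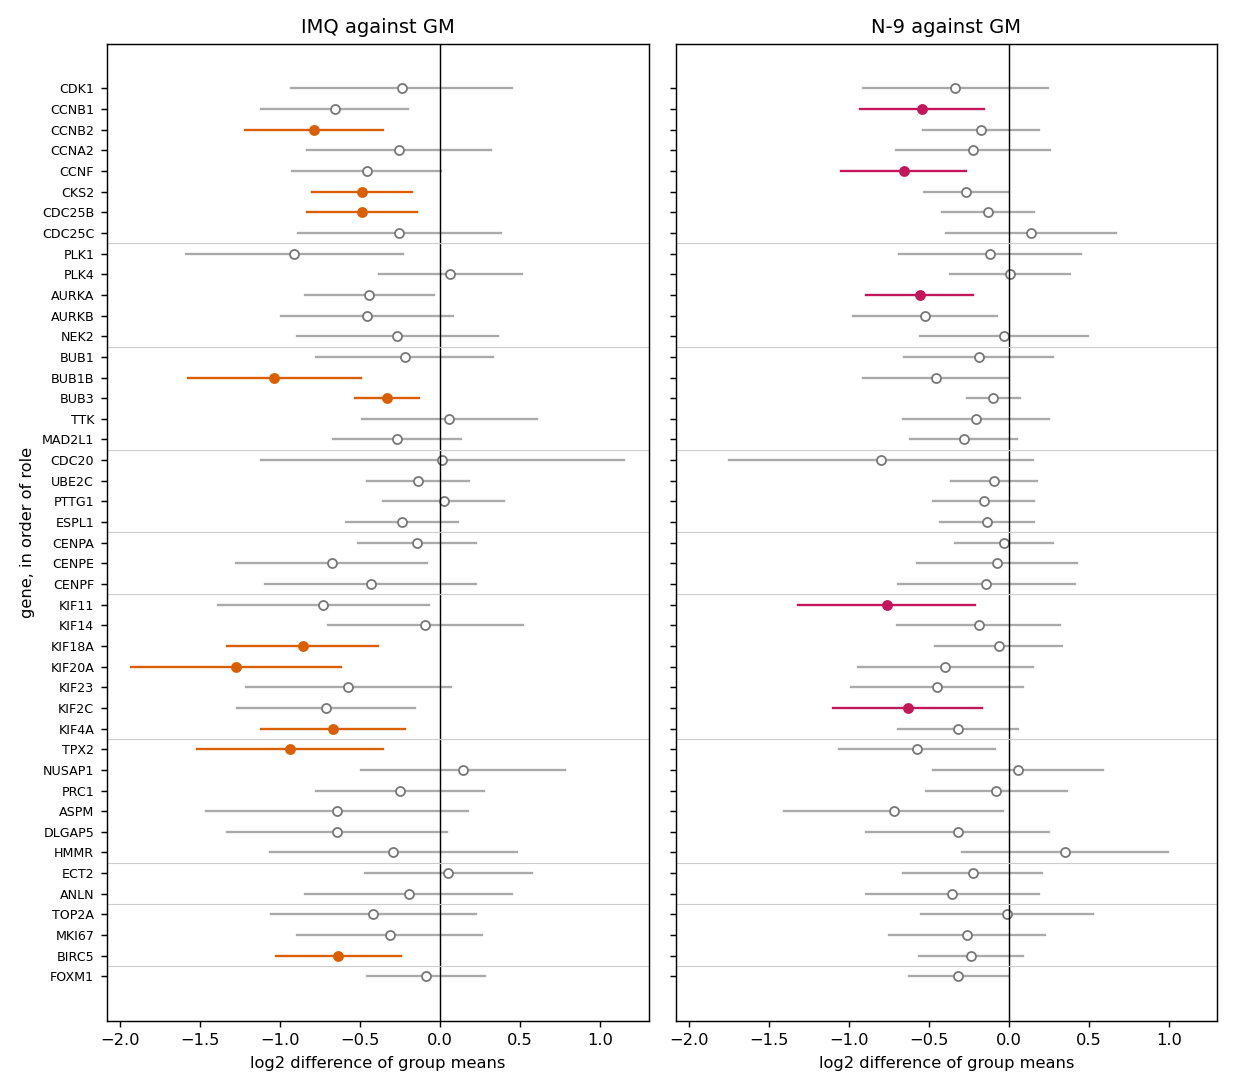
Log2 difference of group means from GM (horizontal axis, with 95% intervals) of each of the 44 genes after IMQ (left) and N-9 (right), from limma with arrays as samples. Filled points passed an adjusted p of 0.05: 10 genes after IMQ and 5 after N-9, all below 0.

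The 2 runs of IMQ were unlike. In IMQ replicates 1 to 3 all 44 genes were below the GM mean, the run mean of the 44 was -0.91, lower than all 18 GM runs, and 16 of the genes (36.4%) were below their lowest GM run, where 12% of bright and 8.72% of all probesets were. In replicates 4 to 6 the run mean was 0.08, with 26 genes above the GM mean and 18 below. There no gene was below its lowest GM run, where 7.15% of bright and 5.26% of all probesets were. The 10 genes that fell were below the GM mean in both runs, for example KIF20A at -2.09 and -0.46, BUB1B at -1.80 and -0.27 and CCNB2 at -1.34 and -0.23 from it on the log2 scale. In the second run KIF4A was at -0.05 and BUB3 at -0.08. The 10 genes were picked by a low mean over these same 6 arrays, so their shared direction is not a replication. Without the first run 0 of the 44 passed in limma, where 4.39% of all probesets passed. Without the second run 15 fell (34.1%), where 6.16% of all probesets fell. With the runs as a random block 4 genes fell (KIF20A, BUB1B, CCNB2 and KIF18A, adjusted p = 0.017, 0.015, 0.022 and 0.029), or 9.09% where 2.85% of all probesets fell. That fit used the correlation within runs of all probesets, 0.438, for these genes too. With the means of runs as the samples, 2 of IMQ against 18 of GM, none passed in limma, where 0.438% of all probesets fell, and 3 of the 44 had an unadjusted p under 0.05. The log2 ratio of the 3′ to the 5′ control probesets of ACTB was 1.45 in the first IMQ run, 0.46 in the second and 0.14 to 1.12 in the GM runs, and that of GAPDH was 0.33, -0.14 and -0.28 to 0.43. By array, the ACTB ratio was 1.27, 0.90 and 2.17 in IMQ replicates 1 to 3, and the mean of the 44 genes was -0.84, -0.82 and -1.06. In GM replicates 22 to 24 the ratio was 2.05, 0.67 and 0.65, and the mean of the 44 genes was -0.05, -0.12 and -0.06. The part of these ratios in the lower values of the first IMQ run was not tested.

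**Figure D4:**
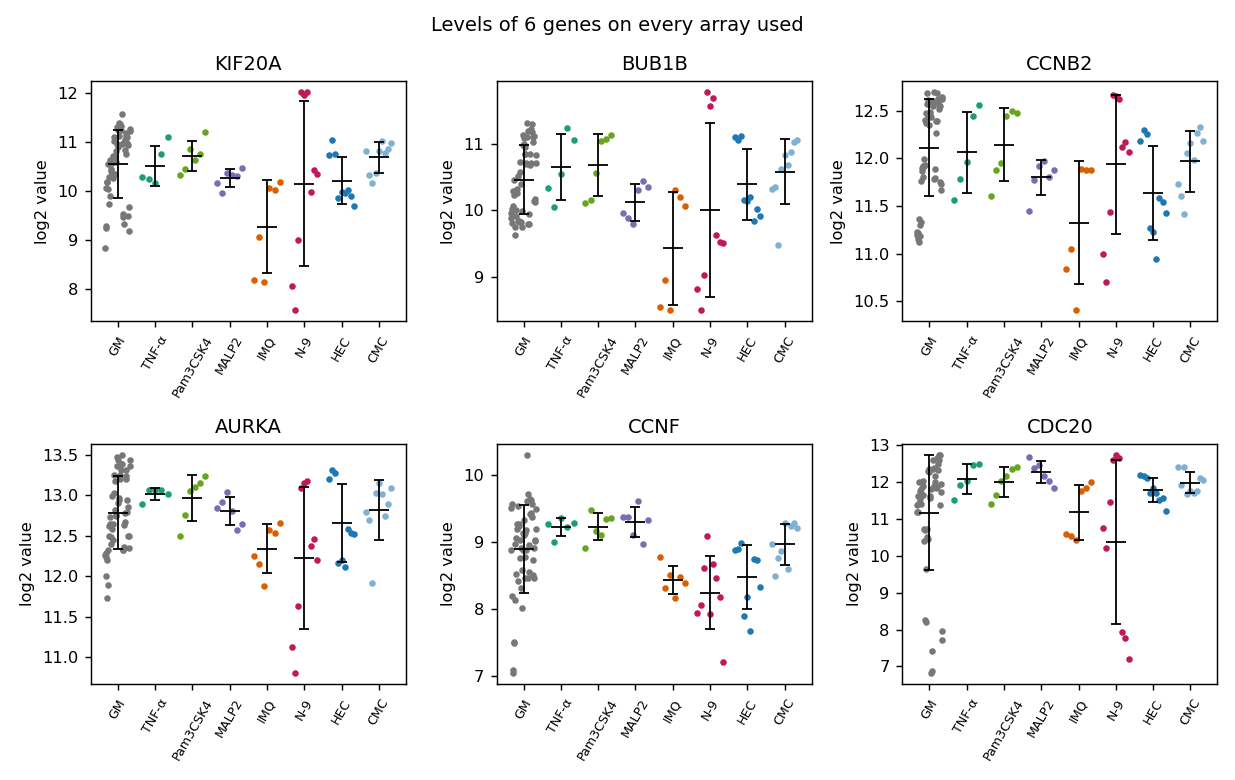
Log2 values of KIF20A, BUB1B, CCNB2, AURKA, CCNF and CDC20 (vertical axes, each panel with its own range) on every array used, by group (horizontal axis) and in order of replicate number, with the mean and SD of each group. The 2 runs of IMQ and the 3 runs of N-9 form separate clusters for KIF20A and BUB1B, and CDC20 has GM arrays near 7 and 8 far below the rest.

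N-9 gave the widest range of the 44 genes of all groups. The runs had means of -1.26 (replicates 1 to 3), 0.80 (replicates 4 to 6) and -0.34 (replicates 7 to 9), the first below and the second above all 18 GM runs. In the first run 43 genes were below the GM mean and 28 (63.6%) were below their lowest GM run, where 14.6% of bright probesets were. In the second 43 were above the GM mean and 17 (38.6%) were above their highest GM run, where 12.6% of bright and 12% of all probesets were. KIF20A showed this most plainly, at 8.06, 7.56 and 8.99, then 12.0, 12.0 and 12.0, then 9.97, 10.4 and 10.3 in replicates 1 to 9. The control probeset ratios of ACTB were 0.49, 0.30 and 0.38 in these runs, within the range of GM.

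The genes that fell after N-9 were CCNF, AURKA, CCNB1, KIF11 and KIF2C. CCNF (cyclin F), the substrate receptor of a ubiquitin ligase, was the one gene of the 5 below the GM mean in all 3 runs, at -0.69, -0.33 and -0.95 from it. Its values ran from 7.21 to 9.10 with a median of 8.19, against 7.04 to 10.3 with a median of 9.02 in GM, and 8 of 9 arrays lay below the GM median. The difference was -0.66 (SE 0.20, adjusted p = 0.011). A second CCNF probeset fell by 0.91. AURKA, the kinase of centrosomes and spindle poles, was at 11.1, 10.8 and 11.6 in the first run, at 13.1, 13.2 and 13.2 in the second and at 12.4, 12.5 and 12.2 in the third, with a GM median of 12.8. It fell by 0.56 (SE 0.17, adjusted p = 0.012), although the second run lay above the GM mean. CCNB1, the main cyclin of CDK1, fell by 0.54 (adjusted p = 0.038), KIF11, the motor that separates the spindle poles, by 0.76 (adjusted p = 0.042) and KIF2C, which depolymerizes microtubules at the kinetochore, by 0.63 (adjusted p = 0.047). Over the 48 further probesets 9 fell and 1 rose. Among these, 4 further probesets of BUB3 fell (by 0.59, 0.40, 1.11 and 1.54) while the one used here differed by -0.10. A further probeset also fell for AURKA (by 0.42), CCNB1 (by 0.86), BIRC5 (by 0.61) and PLK4 (by 0.86). The one that rose was of TOP2A (by 0.63). The second probeset of KIF2C differed by -0.25 and did not pass.

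On the probeset used, the other mitosis genes did not pass after N-9, although further probesets of BUB3, BIRC5, PLK4 and TOP2A did. Of the engine, CDK1 differed by -0.33, CCNA2 by -0.23, CCNB2 by -0.17, CDC25B by -0.13 and CDC25C by 0.14. Of the kinases and the checkpoint, AURKB differed by -0.52 (adjusted p = 0.10), PLK1 by -0.12, PLK4 by 0.0043, BUB1B by -0.46, BUB1 by -0.19, MAD2L1 by -0.28 and BUB3 by -0.10. CDC20 differed by -0.80 with an SE of 0.48. UBE2C (-0.09), PTTG1 (-0.16) and ESPL1 (-0.14), CENPA (-0.03), CENPE (-0.07), CENPF (-0.14), KIF20A (-0.40), TOP2A (-0.01), MKI67 (-0.26), BIRC5 (-0.24) and FOXM1 (-0.32) did not pass. TPX2 differed by -0.58 (adjusted p = 0.094), ASPM by -0.72, KIF23 by -0.45, ANLN by -0.35, DLGAP5 and KIF4A by -0.32 each and CKS2 by -0.27. ECT2 (-0.23), TTK (-0.21), KIF14 (-0.19), PRC1 (-0.08), KIF18A (-0.06), NEK2 (-0.03) and NUSAP1 (0.06) were nearer to GM, and HMMR was the highest at 0.35. The median difference of the 44 was -0.23, with 40 below 0. Without the first N-9 run 0 genes passed in limma, where 14.2% of all probesets passed. Without the second 26 fell (59.1%) and without the third 3 fell (6.82%), where 9.26% and 11.8% of all probesets fell. With the runs as a random block 1 gene fell (AURKA, adjusted p = 0.041), or 2.27% where 5.37% of all probesets fell. With the means of runs as the samples none passed in limma, where 1.53% of all probesets fell, and 1 had an unadjusted p under 0.05.

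The remaining treatments did not separate from GM. After TNF-α the median difference of the 44 genes was 0.23 with 41 above 0, and after Pam3CSK4 0.21 with 42 above 0. In the first run of each, 26 and 11 genes were above the GM mean, and in the second run of each all 44 were. The smallest adjusted p were those of BUB1 after TNF-α (0.63, SE 0.30, adjusted p = 0.56) and of PLK4, the kinase of centriole duplication, after Pam3CSK4 (0.53, SE 0.23, adjusted p = 0.28). Both runs of both treatments lay within the range of the GM runs, at 0.01 and 0.65 for TNF-α and at -0.13 and 0.62 for Pam3CSK4. In these groups the cyclin-CDK genes were close to GM, with CDK1 at 0.38 and 0.15, CCNB1 at 0.23 and 0.21 and CCNB2 at -0.05 and 0.03 after TNF-α and Pam3CSK4. MKI67 was at 0.56 and 0.46, TOP2A at 0.50 and 0.11, CDC20 at 0.91 and 0.83, and PLK1 at -0.15 and -0.05. The SEs ran from 0.11 to 0.62 after TNF-α and from 0.10 to 0.57 after Pam3CSK4. After MALP2 the median was 0.0041, with 22 genes above 0 and 22 below. The smallest adjusted p was that of BUB3 (-0.20, SE 0.10, adjusted p = 0.27), and CDC20 differed most, by 1.09 (SE 0.57, adjusted p = 0.31). The GM mean of CDC20 includes its 3 low GM runs, at 8.70, 7.04 and 7.85, where the median GM run was at 11.7. All differences of CDC20 from GM are taken from that mean. MALP2 runs were at -0.26 and 0.28. HEC had a median of -0.27 with 38 genes below 0. Its runs were at 0.45, -0.69 and -0.50, its smallest adjusted p was that of PTTG1 (securin; -0.46, SE 0.16, adjusted p = 0.13), and without the first HEC run 4 genes fell (9.09%, where 0.688% of all probesets fell). After HEC the largest differences were those of HMMR (-0.65), CDC20 (0.60), NUSAP1 (-0.57), CDC25C (-0.52), NEK2 (-0.51) and KIF2C (-0.50), and CDK1 was at -0.26, CCNB1 at -0.28, MKI67 at -0.14 and PLK1 at 0.01. CMC had a median of -0.0031, with runs at -0.49, 0.10 and 0.43. CDC20 had the smallest p there (0.80, SE 0.48, adjusted p = 0.73), and the other 43 genes lay between -0.35 and 0.32.

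No direct comparison of treatments gave a gene that passed in limma. Between IMQ and N-9, where 10.8% of all probesets passed, the smallest adjusted p was that of KIF18A, 0.80 lower after IMQ (SE 0.29, adjusted p = 0.062, 95% interval -1.37 to -0.22), and 3 of the 44 genes had an unadjusted p under 0.05. With the first N-9 run left out 11 genes (25%) were lower after IMQ, with the second IMQ run left out 5 (11.4%) were, and with the third N-9 run left out 1 (2.27%) was. Of all probesets 5.65%, 5.03% and 7.27% were lower in these fits. Between N-9 and HEC, where 8.6% passed, 2 genes had an unadjusted p under 0.05, HMMR (1.00 higher after N-9, SE 0.42, adjusted p = 0.15) and CDC20 (1.40 lower, SE 0.63, adjusted p = 0.17). Here the direction of the list turned with 1 run: without the first N-9 run 4 genes were higher after N-9 (9.09%, against 4.27% of all probesets), without the second 10 were lower (22.7%, against 5.74%), and without the first HEC run 3 were higher (6.82%, against 4.28%). Between the gels HEC and CMC the median was -0.29 with 42 genes lower after HEC, no gene had an unadjusted p under 0.05, and no probeset of all passed. CCNF had the smallest p there, with a difference of -0.49 and a 95% interval of -1.0 to 0.02, which does not show that the gels act alike on it.

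Genes of neighbouring steps of the cell cycle were counted beside the 44, against 6.19% (IMQ) and 10.1% (N-9) of all probesets that fell. Of 53 genes of G1/S and DNA replication, 20 fell and 2 rose after IMQ and 35 fell and 1 rose after N-9, with medians of -0.43 and -0.54. MCM2 and MCM3, of the replicative helicase, fell by 1.27 each after IMQ, and SLBP, which binds histone mRNA, fell by 0.64. CCND1 (cyclin D1) fell by 1.45 after N-9, the single-strand binding protein RPA1 by 0.66 and the flap endonuclease FEN1 by 0.98. CDC6, which loads the helicase, rose by 1.22 after IMQ and by 1.14 after N-9. A random block for the runs left 14 of the 53 lower after IMQ and 28 after N-9, where 2.85% and 5.37% of all probesets fell. Without the first run 3 and 12 fell, where 2.18% and 8.51% of all probesets did. With the means of runs as the samples 1 and 6 fell, where 0.438% and 1.53% of all probesets did. Of the 86 other G2/M genes 16 fell and 2 rose after IMQ, and 21 fell and 3 rose after N-9. The block for runs left 6 and 13 lower, and the means of runs 1 and 0. INCENP of the passenger complex fell by 1.58, NEK9 by 0.68 and CDCA8 by 0.89 after IMQ, and KIFC1, a minus-end kinesin, fell by 1.60, NEK9 by 0.54 and KIF18B by 0.62 after N-9. Without the first run 1 and 3 of the 86 fell, against 2.18% and 8.51% of all probesets. In that fit for N-9 7 of the 86 rose, against 5.72% of all probesets.

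Among 19 cell cycle inhibitors and pocket proteins measured, 4 rose and 3 fell after IMQ, 6 rose and 1 fell after N-9, and 4 rose and 2 fell after MALP2. Of all probesets 4.68% rose and 6.19% fell after IMQ, 7.35% and 10.1% after N-9, and 3.28% and 3.66% after MALP2. CDKN1A (p21) rose by 1.53 after IMQ, 1.47 after N-9, 1.34 after MALP2 and 0.96 after Pam3CSK4 (adjusted p = 1.2e-05, 2.9e-07, 2.7e-04 and 0.037). It was above the GM mean in both runs of IMQ (by 1.57 and 1.49) and in all 3 runs of N-9 (by 1.59, 1.98 and 0.84). In the same runs the mean of the 44 mitosis genes was -0.91 and 0.08 after IMQ and -1.26, 0.80 and -0.34 after N-9. A relation of CDKN1A to the mitosis genes was not tested. BTG1, an antiproliferative gene, rose by 1.61 after IMQ and 1.62 after N-9, and GADD45B, a stress gene, by 2.38 and 1.80. For CDKN1A the GM run of replicates 43 to 45 was also high, at 1.48 from the GM mean. With the runs as a random block CDKN1A passed after IMQ, N-9 and MALP2 but not after Pam3CSK4 (adjusted p = 0.13). With the means of runs as the samples it passed after N-9 (adjusted p = 0.041) and not after IMQ (adjusted p = 0.15), MALP2 (adjusted p = 0.41) or Pam3CSK4. BTG1 and GADD45B passed after both IMQ and N-9 in that fit. MASTL, a kinase that keeps CDK1 substrates phosphorylated and is among the other G2/M genes, rose by 0.98 after TNF-α, 1.05 after Pam3CSK4 and 1.10 after MALP2 (adjusted p = 0.027, 0.0024 and 3.1e-04). With the runs as a random block MASTL passed after Pam3CSK4 and MALP2 and not after TNF-α (adjusted p = 0.18). With the means of runs as the samples it passed after none of these treatments (adjusted p = 0.38 after MALP2).

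**Figure D5:**
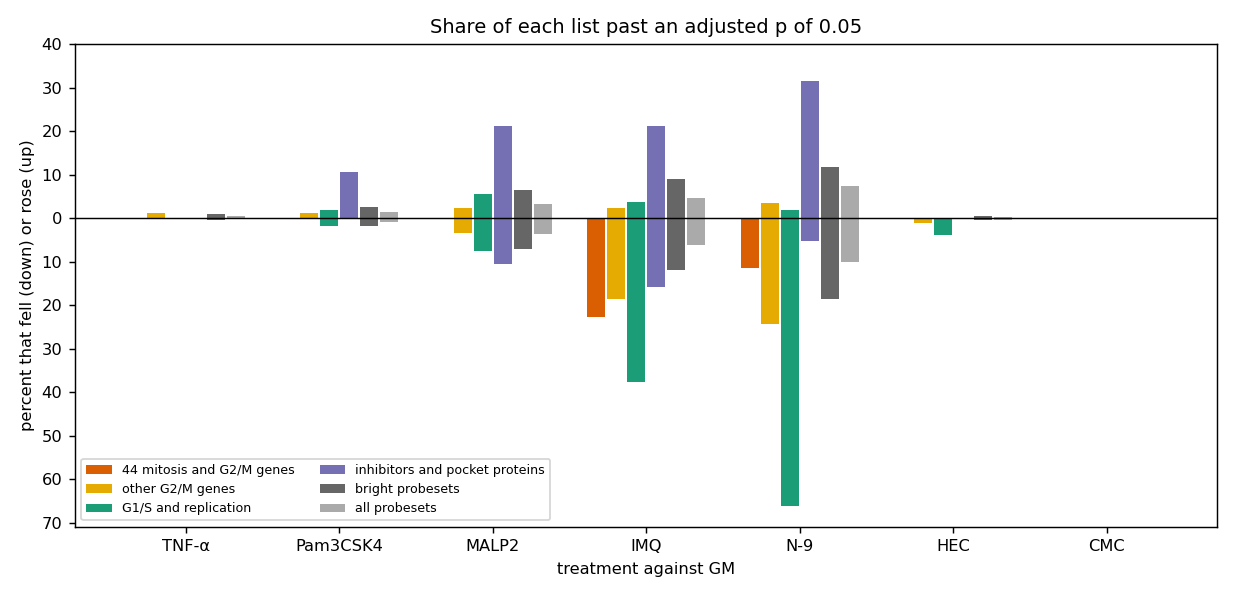
Percent of each gene list that rose (up) or fell (down) at an adjusted p under 0.05 in limma, for the 7 treatments against GM (horizontal axis), with arrays as samples. After N-9 66% of the G1/S and replication genes fell, against 11.4% of the 44 mitosis genes and 18.6% of bright probesets, and after IMQ the shares were 37.7%, 22.7% and 11.9%.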

How the data were processed

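RNA of Vk2/E6E7 cells was amplified, biotin-labelled and hybridized to Affymetrix U133 Plus 2.0 arrays. The values are the log2 signals per probeset that the authors deposited as a single table. MAS5 and GCOS 1.3 stand in the processing notes of the submitters, while the paper's methods describe RMA; the values have the form of MAS5 signals, whose dim probesets are noisier. All 54613 probesets other than the 62 controls were quantile normalized here over 103 arrays and compared with limma (version 3.58.1, run in R 4.3.3), with a mean for each group, moderated variances (eBayes) and p-values adjusted by Benjamini-Hochberg within each comparison, at a threshold of 0.05. No filter on dim probesets was used. The steps were tested on simulated data with independent noise on each array and no runs. That test therefore does not cover the likeness of arrays within a run. The number of arrays limits the precision, and since arrays of a run are alike, p-values with arrays as samples measure partly the spread within runs.

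Groups come from the labels. The members and the gene lists were chosen with earlier results of these data known. Named were the genes that passed, a fixed set of well-known mitosis genes whether or not they passed, up to 4 genes of each neighbouring list with the smallest adjusted p and CDKN1A; the other lists were markers of keratinocytes, leukocytes, melanocytes, and fibroblasts and endothelium. Genes were named from the platform annotation. Alternatives were no normalization, bright probesets (mean of at least 7), an offset of 16, runs as a random block, GM replicates 1 to 9 as the controls with and without the replicate number as a block, all 105 arrays, the mean of all probesets of a gene, each run left out, the methods' analysis of variance and, added after the data were seen, means of runs, for the neighbouring lists also the runs as a block or left out.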

Additional observations from a re-analysis of the deposited data

Results flagged for a closer look

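Among 112 groups of 5 to 9 arrays (the mean of the 44 genes and 15 genes that passed, in 7 treatments), 3 had 1 array far from the others by Dixon's gap test, which flags about 1 in 20 groups by chance. All 3 were in CMC. CDC25B was at 10.8 in CMC replicate 2, with the next array at 11.3 and the highest at 11.6. BUB1B was at 9.48 and AURKA at 11.9 in CMC replicate 3, with the next arrays at 10.3 and 12.7 and the highest at 11.1 and 13.2. None of these 3 genes passed in the comparison of CMC with GM.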

How the results depend on the processing

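After IMQ and N-9 the counts of genes that passed (10 and 5) were within 1.5 times under no quantile normalization, bright probesets, the offset and the mean of all probesets. Of the probesets tested 6.9%, 15.1%, 6.13% and 6.19% fell after IMQ in these 4 settings. After N-9 8.55%, 21.8%, 9.86% and 10.1% did. With all 105 arrays 2 and 1 fell, where 2.7% and 5.42% of all probesets did. With the runs as a random block 4 and 1 fell, where 2.85% and 5.37% did. With means of runs 0 and 0 fell, where 0.438% and 1.53% did. Leaving out 1 run each gave 0 to 15 genes for IMQ, 0 to 26 for N-9, 0 to 4 for HEC, 0 to 11 for IMQ against N-9 and 0 to 10 for N-9 against HEC. IMQ against N-9 gave 1 gene without normalization, with bright probesets, with the mean of all probesets and with the replicate block. It was lower after IMQ each time, where 7.27%, 11%, 5.2% and 3.2% of the probesets tested were lower. N-9 against HEC gave 1 with the mean of all probesets, lower after N-9, where 4.81% of all probesets were lower.

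The choice of controls turned directions. Against GM replicates 1 to 9, the lowest GM runs, without and with the replicate number as a block, 20 and 26 genes passed for TNF-α, 24 and 28 for Pam3CSK4, 14 and 17 for MALP2 and 1 and 5 for CMC, all higher than GM. Of all probesets 3.52% and 6.63%, 6.45% and 10.1%, 7.85% and 11.1%, and 0.747% and 1.54% were higher in these fits. For N-9 8 and 8 passed, all higher (18.2%, against 5.73% and 6.14% of all probesets), and for IMQ 6 (5 higher, 1 lower) and 9 (7 higher, 2 lower), where 9.93% and 12.8% of all probesets were higher. The differences of CCNB2 after IMQ became 0.092 and 0.14. After N-9 those of AURKA became 0.068, CCNB1 0.27, CCNF 0.085, KIF11 0.31 and KIF2C 0.47 in both fits, none passing, and KIF2C ran from -1.26 to 0.13 with 1 run left out. Those 9 arrays are the 3 GM runs with the lowest means of the 44 genes. Same-numbered arrays deviated together in part: replicates 1 to 6 of GM with N-9 (correlations of 0.25 to 0.33) and with HEC (0.257 to 0.342), but not replicates 7 to 9 (-0.238 to -0.146 and -0.174 to -0.0951), and HEC with N-9 at 0.0917 to 0.241 in all 9. The other 7 comparisons had no pair over 0.1. Since no comparison had every pair over 0.1, the numbers were not taken as pairs. Before normalization the mean of the array medians was 6.78 to 6.88 in the first 3 GM runs. It was 6.92 and 6.95 in the first 2 HEC runs, 6.86 and 6.89 in the first 2 N-9 runs and 6.91 in the first CMC run. Every other run lay between 6.30 and 6.68. What the first runs of GM, HEC, N-9 and CMC share is not given in the sources used here, and its part in the directions was not tested. With the replicate block N-9 against HEC and HEC against CMC stayed at 0. By the methods' analysis of variance 9 of the 44 genes (20.5%) and 27.2% of all probesets passed.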
